A study of Mus musculus with 46 samples.

Results

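CCK basket cells and PV basket cells of the mouse frontal cortex were compared through 20 of the 46 libraries of the series, the 4 titled as CCK basket and the 16 titled as PV basket, which hold 64 and 127 of its 584 single cells. The CCK basket cells came from Vip-Flp; CCK-Cre; Ai65 mice, in which the red reporter needs both recombinases, and were taken from layers 2 and 3 of animals 5 (postnatal day 39) and 6 (day 40), both labelled male. The PV basket cells came from Pv-iresCre; Ai14 mice, in which Cre alone switches the reporter on, and were taken from all layers of animals 7 (day 81) and 9 (day 83), labelled male, and 8 (day 58) and 10 (day 83), labelled female. Both sources are called wild type, and every sample, also of lines without an inducible recombinase, carries the same note on tamoxifen before birth. Recombination is permanent, so either reporter marks cells that used its driver at any time, and the PV line has no second driver that would select basket cells among PV cells. Messenger RNA of red neurons picked after trituration was amplified linearly and sequenced with a barcode for each cell. The other 5 types of the series (interneuron-selective, Martinotti, long-projecting and upper and deep chandelier cells) entered here to set the spread between replicates and for a lineage contrast. Interneuron-selective cells came from Vip-Flp; CR-Cre; Ai65 mice of day 32, Martinotti cells from Sst-Flp; CR-Cre; Ai65 mice of day 35, and long-projecting cells from Sst-Flp; Nos1-Cre; Ai65 mice of days 28 and 29. Chandelier cells came from Nkx2.1-CreER; Ai14 mice, deep ones of day 34 and upper ones of days 40 to 58, where animal 14 carries both of these ages and one of its libraries the reporter name Ai15.

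Basket cells wrap their axon terminals around the soma and proximal dendrites of pyramidal neurons, and 2 kinds do so. PV basket cells arise in the medial ganglionic eminence under Nkx2-1 and Lhx6, fire fast, and release GABA in tight time lock with their spikes. CCK basket cells arise in the caudal ganglionic eminence, release GABA less synchronously, and carry presynaptic cannabinoid receptors and many receptors for modulators. The question of the comparison was which genes separate the 2 kinds, and which of these differences also separate other cells of the same lineages.

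The library sums held 2329357 to 3942461 counts in the 4 CCK libraries and 1374658 to 4440593 in the 8 PV units described next. The 16 PV libraries fell into 8 pairs with the same index in neighbouring lanes, one labelled male and the other female. Within these pairs counts differed by 1.22 to 1.72 times the sampling noise, whereas the other 112 pairs of PV libraries differed by 8.28 to 29.8 times and the 6 pairs of CCK libraries by 53 to 71.7 times. The paired libraries shared 0 cell barcodes, and each CCK library used the same 16. Of the 127 PV cells, 125 held counts of both Xist, which is transcribed from the inactive X chromosome, and a Y-linked gene, against 5 of 64 CCK cells, so the sex labels of the PV libraries were not relied on. Each lane pair was therefore counted as 1 library, and animals 7 and 8, and 9 and 10, as 1 replicate each, which leaves 2 replicates of each type. By median, cells of 1 library differed from each other by 1.07 times the sampling noise in CCK and 1.13 times in PV libraries. Whether the barcodes keep single cells apart was not tested, so cells were only summed. Flow cell, mouse line, cortical layers, age and, in part, sex differ between the types and cannot be told apart from type. In such sums fewer expressing cells and less RNA per cell cannot be told apart. Levels are in CPM, a gene's count relative to the total of its library or replicate. Over a whole type, 3 counts (the floor used here for a count of 0) equal 0.269 CPM in CCK and 0.144 CPM in PV basket cells, and such floors cover counting error only.

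The genes whose drivers labelled the cells were measured first. Vip, a peptide that relaxes vessels and excites neurons, stood at 3581, 4739, 3908 and 5118 CPM in the 4 CCK libraries and at 0 in all PV lane pairs except for 0.859 CPM in one. Cck, the peptide that names the type, stood at 1235, 1498, 1902 and 3247 CPM in CCK libraries and between 159 and 282 CPM (median 229) in the PV lane pairs. Both groups of libraries were separate for each gene, and Cck was measured clearly above the floor in every PV lane pair. Pvalb, which encodes the calcium buffer parvalbumin, stood at 809 to 1310 CPM (median 1009) in PV lane pairs and at 5.07, 0, 0.859 and 0 CPM in CCK libraries. Vip passed the test across all genes (adjusted p = 0.0321, quasi-likelihood test of edgeR, Benjamini-Hochberg adjustment over all genes), as did Pvalb, which was 576 times higher in PV basket cells (log2 CCK over PV -8.99, SE 1.43, adjusted p = 0.00425). Cck was 8.69 times higher in CCK basket cells (log2 3.22, SE 1.00) and did not pass (adjusted p = 0.114). Its CCK replicates stood at 1335 and 2591 CPM, and its level in deep chandelier cells was 465 ± 357 CPM (SD, n = 2). In a fit of the basket types alone Cck had an adjusted p of 0.0284. With 1 basket replicate left out, the adjusted p of Vip was 0.0686 (animal 5), 0.079 (animal 6), 0.336 (animals 7 and 8) and 0.283 (animals 9 and 10), and it was also lost without animals 3, 4 or 15 (0.0548, 0.0547 and 0.0794) and without the filter on low counts (0.134). These genes chose the cells, so their difference checks the labels only. Of the CCK basket markers other than Vip and Cck, 6 of 9 tested were higher in CCK and 0 in PV basket cells, and of the PV basket markers other than Pvalb, 7 of 15 were higher in PV and 0 in CCK basket cells. Over all genes tested, 1.74% were higher in CCK and 1.2% in PV basket cells.

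The stretch just before the annotated start of each labelling gene is shown because these are the genes by which the 2 kinds were told apart (RefSeq on GRCm38.p6, the build of the table and not that of the counts, 120 bases each). Capitals mark the core of the cyclic AMP response element, TGACG, or its reverse complement CGTCA.
Vip, chr10:5639098-5639217, plus strand: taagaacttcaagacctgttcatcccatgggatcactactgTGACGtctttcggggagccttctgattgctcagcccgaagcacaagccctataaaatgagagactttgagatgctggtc
Cck, chr9:121495695-121495814, minus strand: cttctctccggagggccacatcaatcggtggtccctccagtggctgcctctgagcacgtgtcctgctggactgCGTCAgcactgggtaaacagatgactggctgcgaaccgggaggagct
Pvalb, chr15:78206401-78206520, minus strand, 1 of 2 annotated starts: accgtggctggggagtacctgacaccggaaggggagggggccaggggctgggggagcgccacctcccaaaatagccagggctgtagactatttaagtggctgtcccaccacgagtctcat
Counted from the annotated start, the core began at base -79 in Vip and at base -47 in Cck, and these letters were not found in the Pvalb stretch. In the wider windows of 300 bases around a start, the core stood in 20.8% of all 32851 windows of the table and in 28.5% of those of tested genes. It stood in 19% of the 263 windows of genes higher in CCK basket cells and 24.3% of the 169 windows of genes higher in PV basket cells. The 263 windows covered 185 of the 270 genes and the 169 windows 125 of the 187. A match of letters is not a site in use.

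Across the 15533 genes tested, 270 (1.74%) were higher in CCK basket and 187 (1.2%) higher in PV basket cells at an adjusted p under 0.05, and 2422 had an unadjusted p under 0.05. The median log2 difference over all genes was 0.00. Counts of called list members below are to be read against the shares of 1.74% and 1.2%. Calls of only a few genes say little about a list. All 4 CCK libraries stood above all 8 PV lane pairs for 499 genes (3.21%) and below all of them for 765 (4.92%). These library counts held 220 of the 270 genes called higher in CCK basket cells and 171 of the 187 called higher in PV basket cells. With 2 replicates a type, the counts leaned on each one: they were 172 and 75 without animal 5, 151 and 88 without animal 6, 32 and 36 without animals 7 and 8, and 46 and 47 without animals 9 and 10. A total of 26 CCK genes and 30 PV genes passed in each of these 4 fits. Without each deep chandelier replicate the counts were 450 and 336 (animal 11) and 468 and 321 (animal 12). Without a long-projecting replicate they were 180 and 109 (animal 15), 178 and 115 (animal 16) and 188 and 113 (animal 17). A fit of the basket types alone gave 150 and 100 genes, called 116 of the 270 and 75 of the 187 again, and called 51 of the 56 genes that passed in all 4 basket leave-outs. All 457 called genes kept their direction in each of these fits in which they were tested. With interneuron-selective library 3 left out, a setting chosen after seeing the data, the counts were 234 and 150.

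**Figure D1:**
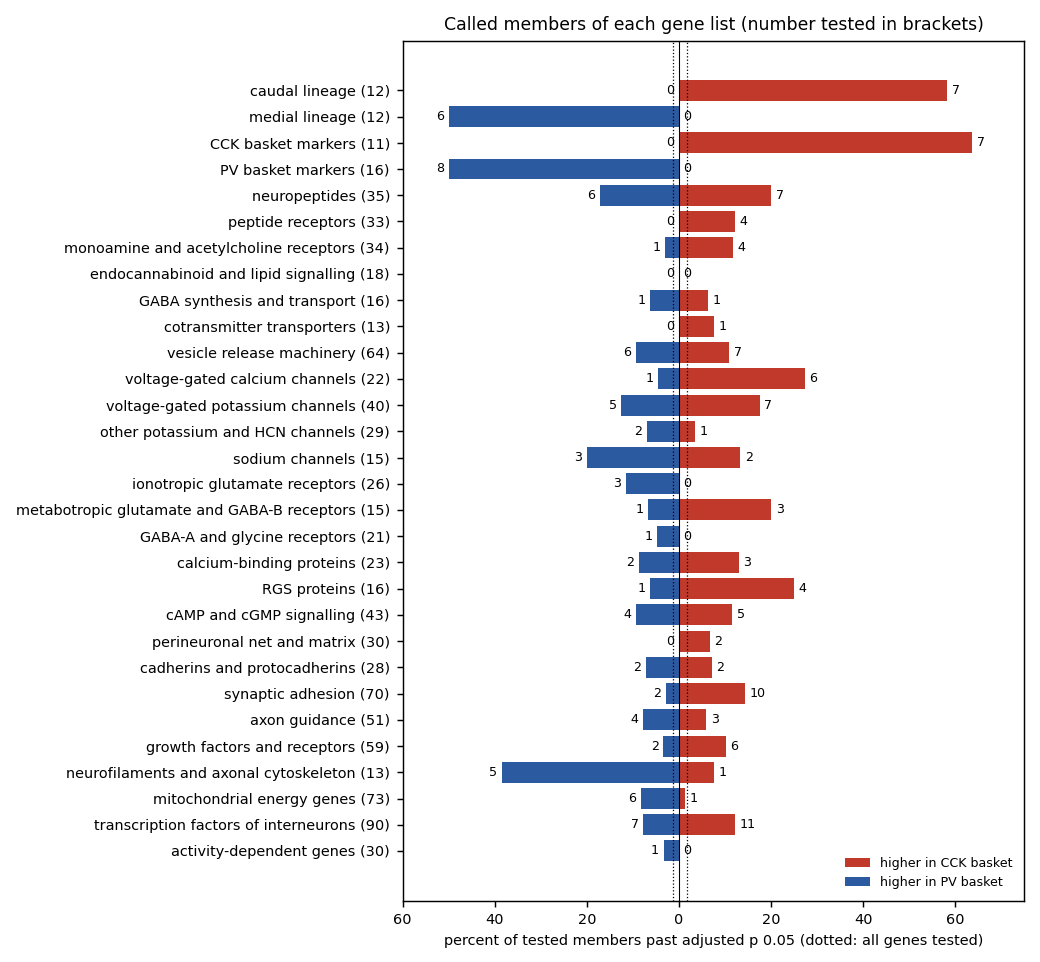
Share of the tested members of each gene list that passed an adjusted p of 0.05, in percent, with CCK basket to the right and PV basket to the left, the number called beside each bar and the number tested in brackets. The dotted lines mark the shares over all genes tested, 1.74% and 1.2%, and the lineage and marker lists have the longest bars.

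Genes of the caudal lineage were higher in CCK basket cells and genes of the medial lineage higher in PV basket cells. Of 12 listed genes known from caudally derived interneurons, 7 were higher in CCK and 0 in PV basket cells, with a median log2 difference of 7.07. Igf1, described below with the growth factors, is among these 7, and many of its values were not whole. It is also counted among the CCK basket markers, the peptide genes and the growth factors. Adarb2, an RNA-binding relative of the RNA-editing enzymes, stood at 7176, 7292, 5653 and 5750 CPM in CCK libraries and at 15.9 to 67.9 CPM (median 32.1) in PV lane pairs. It was 186 times higher in CCK basket cells (log2 7.64, SE 0.72, adjusted p = 0.00011). The transcription factors Sp8, Prox1, Nr2f2 and Npas1, which mark cells of caudal origin, were measured at 62.4 to 254, 34.3 to 76.6, 120 to 402 and 171 to 340 CPM in CCK libraries. In PV lane pairs Sp8 and Prox1 were at 0 except for 0.471 CPM in one, Nr2f2 reached at most 8 CPM, and Npas1 at most 6.82 CPM. Their adjusted p-values were 0.00557, 0.0148, 0.04 and 0.00525. Nr2f2 held values that are not whole in 12.5% of the cells with a count, so part of its reads may belong to another gene. Of the list's other members, Nr2f1 and Npas3 stood at 275 and 1645 CPM in CCK against 77 and 193 CPM in PV basket cells, without passing (adjusted p = 0.349 and 0.204). Npas3 passed in a fit of the basket types alone (adjusted p = 0.00638) and in DESeq2 (0.0445), and Nr2f1 in neither (0.0745 and 0.21).

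On the medial side, 5 of the 11 listed genes other than the driver Pvalb were higher in PV and 0 in CCK basket cells, with a median log2 difference of -3.14, or -2.76 with genes of at most 3 counts in one type set at the floor. Lhx6, which directs medially derived interneurons, was at 0 in each CCK library and at 69.8 to 115 CPM (median 88.8) in PV lane pairs, at least 330 times higher than the floor (adjusted p = 4.8e-05). Nxph1, a secreted ligand of neurexins, stood at 34, 15.6, 7.73 and 7.35 CPM in CCK libraries and 289 to 594 CPM (median 557) in PV lane pairs, and was 29.8 times higher in PV basket cells (log2 -4.79, SE 0.53, adjusted p = 0.000313). Sox6, which acts after Lhx6, was 9.43 times higher in PV basket cells (adjusted p = 0.000874), but 42% of its values were not whole. Sst passed as well (adjusted p = 0.00647) at a mean of only 1.57 CPM in PV and 0 in CCK basket cells, and in the fit of the basket types alone its adjusted p was 0.108. Nkx2-1, which starts the medial programme in the embryo, stood at 18.9 ± 2.76 CPM (SD, n = 2) in CCK and 20.5 ± 4.48 CPM (SD, n = 2) in PV basket cells and did not pass. Lhx6, Nxph1, Sox6 and Adarb2 kept an adjusted p under 0.05 with any one basket replicate left out, and Sp8, Prox1, Nr2f2 and Npas1 did not.

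**Figure D2:**
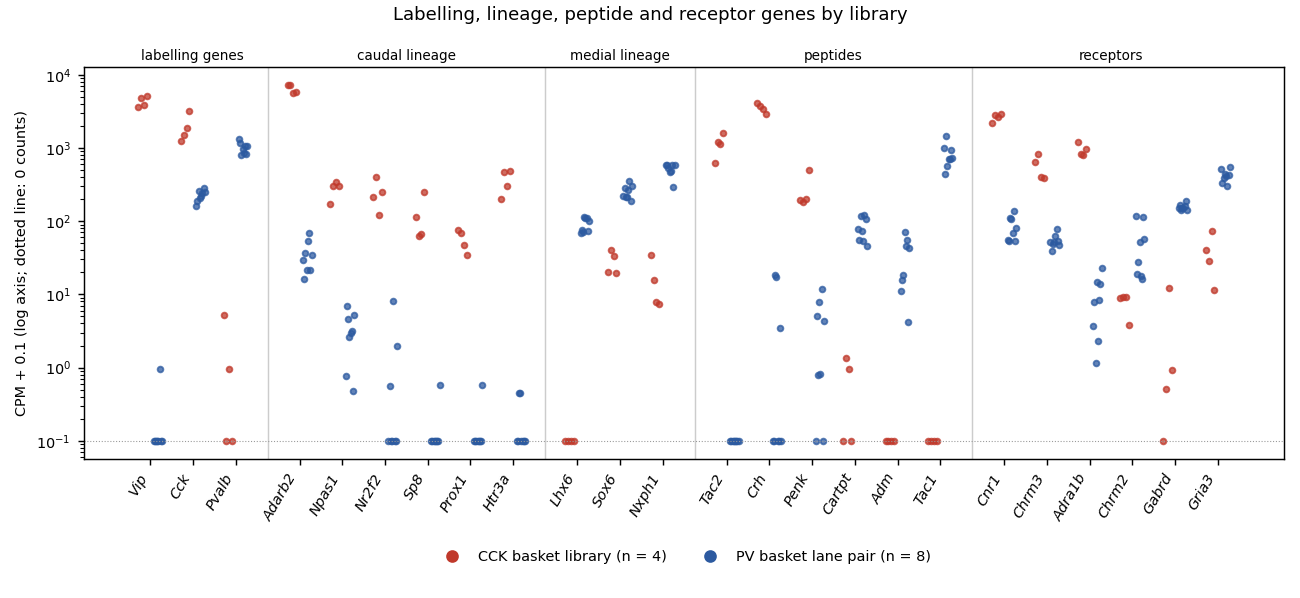
CPM plus 0.1 on a log axis for the labelling genes and for lineage, peptide and receptor genes, with 1 point per CCK library (red) and per PV lane pair (blue), and the dotted line at 0 counts. Lhx6 lies at 0 in the CCK libraries and Tac2 at 0 in the PV lane pairs, and the groups are also apart for Cnr1 and Tac1, which did not pass the test.

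The lineage question was put to the other types by setting interneuron-selective cells, which carry Vip and share the caudal origin, against the mean of Martinotti, long-projecting and both chandelier types. In that contrast 945 genes (6.08%) were higher and 742 (4.78%) lower in interneuron-selective cells. Of the 270 genes higher in CCK basket cells, 105 (38.9%) were also higher in interneuron-selective cells, 21 (7.78%) were lower, and 144 were not called. Their median log2 value in that contrast was 0.61, against -0.04 over all genes. Of the 187 genes higher in PV basket cells, 70 (37.4%) were lower in interneuron-selective cells, 9 (4.81%) higher and 108 not called, and 151 had a fitted value below 0 there. Both contrasts share no library, though their p-values come from 1 fit with 1 estimate of spread. Tac2, Sp8, Prox1, Cxcl14, Htr3a, Adarb2 and Cbln2 were higher on the caudal side of both contrasts, and Lhx6, Nxph1, Unc5d, Nefm and Cacna2d2 were higher on the medial side of both.

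**Figure D3:**
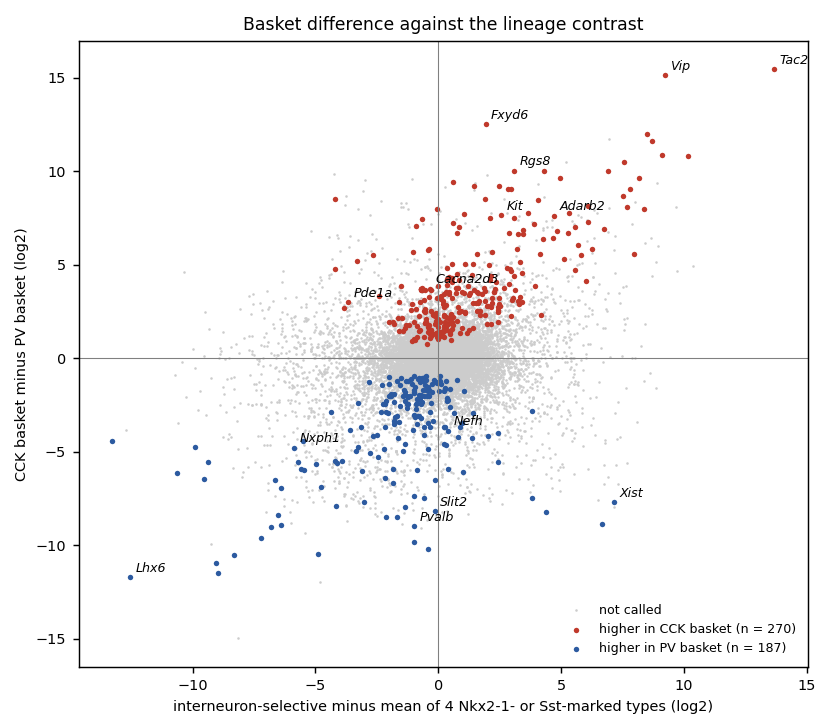
Each point is a gene, with the fitted log2 difference of interneuron-selective cells from the mean of 4 medially derived types on the horizontal axis and that of CCK from PV basket cells on the vertical axis. Most called genes lie in the upper right and lower left, and Slit2 and Pvalb lie far down near 0 on the horizontal axis. Fitted values of genes with no count in a type, such as Lhx6 and Tac2, depend on the small count that the fit adds.

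The difference between these contrasts itself could hardly pass for genes at 0 in a type of each contrast. Examples are Tac2 and Lhx6, with an SE of 2851.04 and 1374.45 on the log2 scale. The difference passed for 197 genes (1.27%), among them 65 of the 270 CCK and 33 of the 187 PV basket genes. This count was 91 without animal 6, 33 without animals 7 and 8, 28 without animals 9 and 10, 108 to 121 without a long-projecting replicate, and 528 and 601 without deep chandelier animals 11 and 12. Of 29 genes named in the text whose difference passed, 7 (Adcy2, Cacna2d3, Gap43, Pde1a, Scn2a1, Syn2 and Xist) passed with each basket replicate left out. The difference was lost for Kit without animals 7 and 8 (adjusted p = 0.0508), for Rgs8 without either PV replicate (0.0635 and 0.0615), and for Slit2 without any one basket replicate (0.0789 to 0.136). Kit, the receptor of stem cell factor, stood at 652, 561, 548 and 596 CPM in CCK libraries and 0.225 to 14.5 CPM (median 1.59) in PV lane pairs, and the basket difference exceeded the lineage contrast by 5.12 on the log2 scale (SE 0.73, adjusted p = 0.0044). Kit was also measured at 331 CPM in interneuron-selective and 381 CPM in upper chandelier cells. Rgs8, a brake on G protein signals, was 1054 times higher in CCK basket cells, at 236, 476, 241 and 528 CPM against at most 1.36 CPM in PV lane pairs, and its difference between contrasts was 6.97 (SE 1.04, adjusted p = 0.00473). Slit2, a repellent for growing axons, stood at 202 to 422 CPM (median 253) in PV lane pairs and at 0, 0.821, 0 and 2.86 CPM in CCK libraries, and its difference between contrasts was -8.04 (SE 1.64, adjusted p = 0.0281). In the other 5 types Slit2 had means of 0.845 to 17.7 CPM. Xist stood at 551 CPM in interneuron-selective, 202 CPM in Martinotti and 229 CPM in upper chandelier cells. It stood at 0.0794 CPM in long-projecting and 0 in deep chandelier cells. For Xist, cell type and the sex of the animals cannot be told apart in either contrast.

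Peptide genes differed in both directions. Of 35 tested genes of neuropeptides, their processing enzymes and related secreted ligands, 7 (Vip among them) were higher in CCK and 6 in PV basket cells. Crh, the corticotropin-releasing hormone, stood at 4057, 3724, 3361 and 2905 CPM in CCK libraries and at most 18.1 CPM (median 0) in PV lane pairs, 762 times higher by the means (log2 9.63, SE 1.86, adjusted p = 0.0135). Tac2, the precursor of neurokinin B, stood at 632, 1219, 1118 and 1606 CPM in CCK libraries and at 0 in each PV lane pair, at least 7713 times higher than the floor (adjusted p = 0.000632). Tac2 was measured at 390 CPM in interneuron-selective cells and at 0 in the other 4 types. In DESeq2 Tac2 did not pass (adjusted p = 0.0685). Edn3, a vasoactive endothelin, reached 133 CPM in one CCK library and 0 in another, with a mean of 64.1 CPM (adjusted p = 0.0374). The convertase Pcsk2 and the granule protein Scg3 were 5.38 and 2.49 times higher in CCK basket cells (adjusted p = 0.0403 and 0.0482).

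Other peptide genes were higher in PV basket cells. Cartpt, the cocaine- and amphetamine-regulated transcript, stood at 45.7 to 122 CPM (median 75.1) in PV lane pairs and at 0, 1.23, 0.859 and 0 CPM in CCK libraries (190 times higher, adjusted p = 0.0414). Adm, the vasodilator adrenomedullin, stood at 4.15 to 71.5 CPM (median 30.7) in PV lane pairs and at 0 in CCK libraries (at least 115 times higher, adjusted p = 0.0255). In the other types Adm was at 0 apart from 0.079 CPM in long-projecting cells. Adm did not pass in DESeq2 (adjusted p = 0.137). Tac1, the precursor of substance P, stood at 443 to 1465 CPM (median 719) in PV lane pairs and at 0 in CCK libraries and did not pass (adjusted p = 0.125), with 348 CPM in deep and 76 CPM in upper chandelier cells. In a fit of the basket types alone Tac1 had an adjusted p of 0.00366. Penk and Npy, at 271 and 295 CPM in CCK and 3.6 and 77.5 CPM in PV basket cells, did not pass (adjusted p = 0.0606 and 0.0732), though no CCK library overlapped a PV lane pair for either. Both passed in the fit of the basket types alone (0.0131 and 0.0439) and in DESeq2 (0.0124 and 0.0108). Carboxypeptidase E (Cpe), which trims peptide precursors, was 2.58 times higher in PV basket cells (adjusted p = 0.0135). Of the peptide genes named here Tac2 alone passed with each basket replicate left out.

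Receptors for modulators were called mainly in CCK basket cells. Of 34 tested receptors for monoamines and acetylcholine, 4 were higher in CCK (11.8%) and 1 in PV basket cells, with a list median of 1.31. Htr3a, the serotonin-gated channel of caudal interneurons, stood at 201, 470, 302 and 487 CPM in CCK libraries and at most at 0.356 CPM in PV lane pairs (adjusted p = 0.00601). Adra1b, an adrenergic receptor that couples to Gq, was 103 times higher in CCK basket cells, at 808 to 1216 CPM against 1.04 to 22.6 CPM (log2 6.80, SE 1.29, adjusted p = 0.0123). Muscarinic receptors went both ways. Chrm3, which couples to Gq, was 10.2 times higher in CCK basket cells, at 383 to 835 CPM against 38.7 to 78.6 CPM (log2 3.45, SE 0.45, adjusted p = 0.00112). Chrm2, which couples to Gi and restrains release, was 7.98 times higher in PV basket cells, at 15.9 to 118 CPM (median 40.2) against 3.68 to 9.04 CPM (log2 -2.89, adjusted p = 0.0346). The nicotinic subunit Chrna3 also passed (adjusted p = 0.0396) at 3.92 and 38.5 CPM in the CCK replicates. Among these receptors Chrm3 alone kept its call with each basket replicate left out.

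Of 33 tested peptide receptors, 4 were higher in CCK (12.1%, against 1.74% of all genes) and 0 in PV basket cells. Npy1r, a receptor for neuropeptide Y, was 14.7 times higher (44.6 to 98.2 CPM against 2.44 to 6.12 CPM, adjusted p = 0.0301), and the orexin receptor Hcrtr2 10.7 times higher (7.73 to 24.6 CPM against 0.754 to 2.48 CPM, adjusted p = 0.0276). Rxfp1 and Oprk1 passed too, at 0 to 141 and 0 to 17.2 CPM in CCK libraries, so their CCK and PV libraries overlapped. The cholecystokinin receptor Cckbr stood at 10.1 to 33.9 CPM in PV lane pairs and at most 0.859 CPM in CCK libraries, without passing (adjusted p = 0.189). None of the 4 called peptide receptors kept its call with every basket replicate left out in turn.

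The cannabinoid receptor Cnr1, by which retrograde lipids silence release from CCK basket terminals, stood at 2198, 2856, 2622 and 2908 CPM in CCK libraries and at 52.8 to 136 CPM (median 74.3) in PV lane pairs. It was 31.7 times higher in CCK basket cells (log2 5.09, SE 1.41), the groups did not overlap, and the adjusted p was 0.0732. A fit of the basket types alone gave Cnr1 an adjusted p of 0.00229, and DESeq2 0.000358. Of the 18 tested genes of the cannabinoid and lipid list, 0 passed by edgeR. For the enzymes that make or remove these lipids a difference was not shown. Dagla stood at 10.6 and 32.8 CPM, Faah at 26 and 36 CPM and Napepld at 13.9 and 16.4 CPM in CCK and PV basket cells, and their adjusted p-values were 0.384, 0.913 and 0.975. Slc17a8, the vesicular glutamate transporter of some CCK basket cells, stood at 2.38 CPM in CCK and 3.13 CPM in PV basket cells (adjusted p = 0.926).

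Genes of GABA synthesis and transport were measured in both kinds. Slc32a1, which loads GABA into vesicles, stood at 1291, 1315, 949 and 1258 CPM in CCK libraries and at 1967 to 3531 CPM (median 2311) in PV lane pairs, 2.07 times higher in PV basket cells (log2 -0.95, SE 0.20, adjusted p = 0.0239). Gad1, a GABA-synthesising enzyme, stood at 704 to 1081 CPM in CCK libraries and 1365 to 2008 CPM in PV lane pairs, without overlap and without passing (adjusted p = 0.181). Gad2 overlapped between the kinds, at 438 and 571 CPM (adjusted p = 0.733). Dlx1, a homeobox gene of GABAergic neurons, was 3.47 times higher in CCK basket cells (log2 1.89, SE 0.31, adjusted p = 0.00525). Slc5a7, which takes up choline, passed among 13 transporters of other transmitters (adjusted p = 0.00589), at 8.15 and 11.9 CPM in the CCK replicates and 0 in PV basket cells. It was the only call of that list (7.69%, against 1.74% of all genes for CCK basket cells). Slc32a1 and Dlx1 each lost the call with at least 1 basket replicate left out.

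Genes of the release machinery were called in both directions, also within families. Of 64 tested genes, 7 were higher in CCK and 6 in PV basket cells, and the list's median was -0.01. Complexins, which clamp the fusion machinery until calcium enters, showed both directions. Cplx1 stood at 256, 423, 199 and 628 CPM in CCK libraries and 1492 to 2289 CPM (median 1758) in PV lane pairs (log2 -2.20, SE 0.24, adjusted p = 0.000303). Cplx2 stood at 396, 741, 494 and 704 CPM in CCK libraries and 54.6 to 213 CPM (median 77.8) in PV lane pairs (log2 2.52, SE 0.51, adjusted p = 0.0168). CCK basket cells were thus below PV basket cells in every library for Cplx1 and above them in every library for Cplx2. Syt2, the fast calcium sensor of PV terminals, was 13.4 times higher in PV basket cells, at 26.9 to 154 CPM against 3.27 to 6.44 CPM (log2 -3.65, SE 0.88, adjusted p = 0.04). Syt7, a slower sensor, was 6.26 times higher in PV basket cells (adjusted p = 0.00151), and the vesicle protein Vamp1 13.7 times higher (adjusted p = 0.00416). The vesicle GTPase Rab3b was 7.78 times higher and the fusion ATPase Nsf 2.07 times higher in PV basket cells (adjusted p = 0.014 and 0.0207).

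On the CCK side of the release list were Syt5, a synaptotagmin (7.34 times higher, adjusted p = 0.00995), and Rph3a, an effector of Rab3 (6.17 times higher, adjusted p = 0.0179). Synpr, Syn2 and Cadps2 also passed, and 49.1% to 71.6% of their values were not whole, so their levels are uncertain. Syt1, the general fast sensor, stood at 2397 to 2812 CPM in CCK libraries and 1720 to 2394 CPM in PV lane pairs (adjusted p = 0.404). Cplx1, Syt7 and Syn2 kept their calls with each basket replicate left out. Vamp1 and Cplx1 also differed from the lineage contrast (adjusted p = 0.0281 and 0.0359 for the difference), which was lost with any one basket replicate left out.

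**Figure D4:**
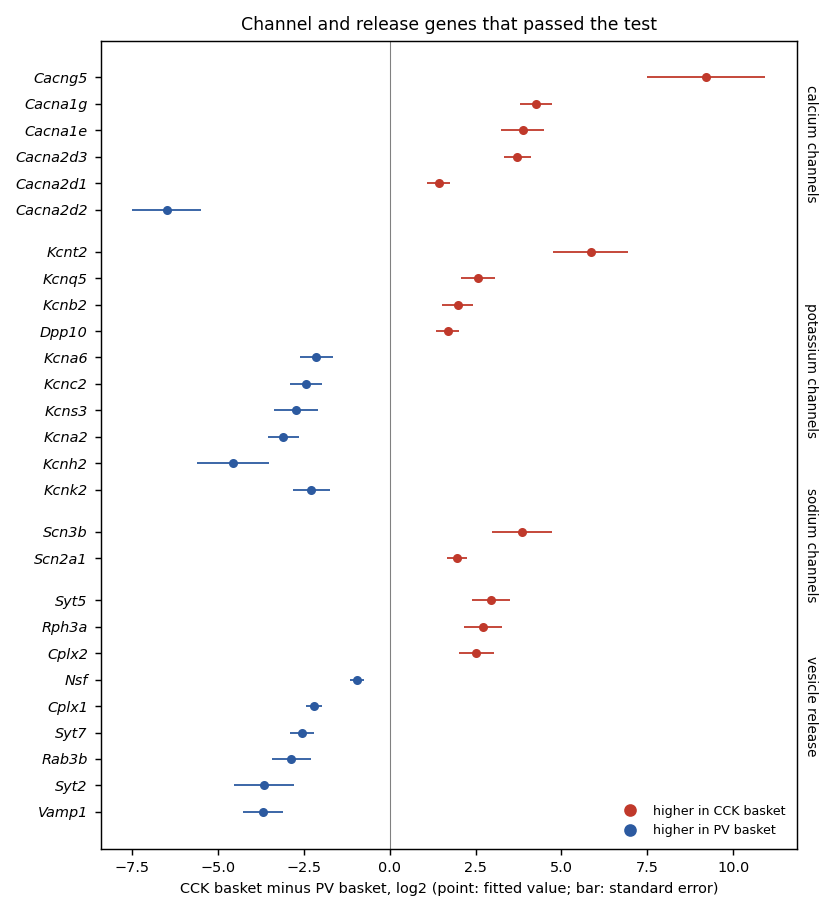
Fitted log2 difference of CCK from PV basket cells, with its standard error, for genes of channels and vesicle release that passed the test, with CCK-high genes to the right of 0 and PV-high genes to the left. Paralogues lie on opposite sides: Cplx2 at 2.52 and Cplx1 at -2.20, and Cacna2d3 at 3.72 and Cacna2d2 at -6.49.

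Calcium channel genes were called higher in CCK basket cells in 6 of 22 and in PV basket cells in 1, with a median of 1.45. The alpha2delta subunits, which carry channels to the terminal, were split. Cacna2d3 stood at 480, 506, 307 and 223 CPM in CCK libraries and 18.4 to 47.3 CPM (median 27.4) in PV lane pairs (12.3 times higher, log2 3.72, SE 0.40, adjusted p = 0.000303), and Cacna2d1 was 2.51 times higher in CCK basket cells (adjusted p = 0.0336). Cacna2d2 stood at 0.254, 0, 2.58 and 4.08 CPM in CCK libraries and 134 to 232 CPM (median 155) in PV lane pairs, 94.6 times higher in PV basket cells (adjusted p = 0.00334). Cacna1g, a low-threshold T-type channel, was 17.9 times higher in CCK basket cells, at 42.9 to 131 CPM against 1.39 to 11.4 CPM (adjusted p = 0.000313). Cacna1e, an R-type channel, was 13.6 times higher (adjusted p = 0.00525), with 9.04 CPM in one CCK library inside the PV range of 1.35 to 12.5 CPM. Cacng5, an auxiliary subunit that also regulates AMPA receptors, was 580 times higher in CCK basket cells (adjusted p = 0.011).

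The pore subunits of the channels that drive release at most terminals did not pass. Cacna1a, of P/Q-type channels, stood at 169 and 260 CPM and Cacna1b, of N-type channels, at 101 and 75 CPM in CCK and PV basket cells (adjusted p = 0.574 and 0.694). Cacna1g, Cacna2d2 and Cacna2d3 kept their calls with each basket replicate left out. Cacna1g, Cacna1e and Cacna2d3 differed from the lineage contrast (adjusted p = 0.00473, 0.026 and 0.00137 for the difference), while Cacna2d2 was also lower in interneuron-selective cells (adjusted p = 0.00357). That difference was lost for Cacna1g without animals 7 and 8 (0.0566) and for Cacna1e without each replicate other than animal 5 (0.0917 to 0.182). In the fit of the basket types alone Cacna2d2 had an adjusted p of 0.0618.

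Potassium channel genes were called in both directions. Of 40 voltage-gated subunits and their partners, 7 were higher in CCK and 5 in PV basket cells. Kcna2, a low-threshold axonal channel, stood at 24.9, 97.3, 78.1 and 90.3 CPM in CCK libraries and 460 to 772 CPM (median 612) in PV lane pairs (9.17 times higher in PV basket cells, log2 -3.09, SE 0.46, adjusted p = 0.00268). Kcnc2, a Kv3 channel of fast-spiking cells, was 5.77 times higher, at 1135 to 1628 CPM against 177 to 268 CPM (adjusted p = 0.013), and Kcns3, a silent partner subunit, 7.07 times higher (adjusted p = 0.0374). Kcnc1, the other Kv3 gene named for these cells, overlapped between libraries (267 and 464 CPM, adjusted p = 0.301) and had 48.6% values that were not whole. Kcnh2 and Kcna6 were also higher in PV basket cells (26.2 and 4.72 times, adjusted p = 0.0323 and 0.03).

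CCK basket cells were higher in Kcnq5, an M-type channel, at 330 to 1266 CPM against 80.4 to 223 CPM (5.59 times, adjusted p = 0.014), and in the Kv4 partner Dpp10 (3 times, adjusted p = 0.0135). Kcnb2 was 3.68 times higher with 1 CCK library inside the PV range (adjusted p = 0.0318). Among 29 other potassium and HCN channels, 1 was higher in CCK (3.45%, against 1.74% of all genes) and 2 in PV basket cells (6.9%, against 1.2%). Kcnt2, a sodium-activated channel, was 54.3 times higher in CCK basket cells, at 373 to 1040 CPM against 3.64 to 18.9 CPM (log2 5.85, SE 1.09, adjusted p = 0.0111). Kcnk2, a leak channel, was 5.21 times higher in PV basket cells (adjusted p = 0.0352). Of the potassium channel genes, Kcna2 alone passed with each basket replicate left out.

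Sodium channel subunits split as well, with 2 of 15 higher in CCK and 3 in PV basket cells. Scn4b, the subunit of resurgent current, was at 0 in CCK libraries and at 1.51 to 59.8 CPM (median 18.8) in PV lane pairs (at least 89.9 times higher, adjusted p = 0.0289). It was at 0 in 4 of the other types and at 0.359 CPM in long-projecting cells. Scn2a1 was 3.63 times higher in CCK basket cells, at 244 to 397 CPM against 24 to 146 CPM (log2 1.96, SE 0.28, adjusted p = 0.00178). In the fit of the basket types alone Scn2a1 had an adjusted p of 0.0643. Scn1a, a main sodium channel of fast-spiking cells, overlapped between the kinds, at 329 and 446 CPM (adjusted p = 0.784). Each sodium channel call was lost with at least 1 basket replicate left out.

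AMPA receptor genes were higher in PV basket cells in 3 cases among 26 tested ionotropic glutamate receptor genes, with 0 higher in CCK basket cells. Gria3 stood at 40.8, 28.8, 72.6 and 11.4 CPM in CCK libraries and 301 to 541 CPM (median 415) in PV lane pairs, 11 times higher (log2 -3.36, SE 0.45, adjusted p = 0.00137). Gria1 was 2.81 times higher (adjusted p = 0.0373), and Gria4 2.26 times (adjusted p = 0.048) with 48.6% values not whole. Gria2, whose product keeps AMPA receptors closed to calcium, stood at 495 CPM in CCK and 307 CPM in PV basket cells and did not pass (adjusted p = 0.132). Gria2 passed in DESeq2 (adjusted p = 0.00927) and not in the fit of the basket types alone (0.192). Gria3 kept its call with each basket replicate left out. Among 15 metabotropic and GABA-B genes, Grm7, a presynaptic receptor, was 6.43 times higher and Kctd16, a GABA-B partner, 6.28 times higher in CCK basket cells (adjusted p = 0.0106 and 0.0482), and Grm8 4.5 times (adjusted p = 0.0474). Grm3 was 19.7 times higher in PV basket cells (adjusted p = 0.0265) and was one of the genes that differed from the lineage contrast (adjusted p = 0.0348), though not with any one basket replicate left out (0.119 to 0.164).

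Of 21 GABA-A and glycine receptor genes, Gabrd was the one that passed (4.76%, against 1.2% of all genes for PV basket cells). This subunit of tonic, extrasynaptic receptors stood at 143 to 187 CPM (median 152) in PV lane pairs and 0, 0.411, 12 and 0.817 CPM in CCK libraries (49.1 times higher, log2 -5.54, SE 1.30, adjusted p = 0.0379). It was also measured at 155 and 185 CPM in upper and deep chandelier cells and at 2.37 CPM or less in the other 3 types. Gabrd lost the call in the fit of the basket types alone (adjusted p = 0.104). With 1 replicate left out, its log2 value ranged from -9.68 to -4.54.

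Signalling genes downstream of G proteins were called in both kinds. Of 16 RGS genes, which shorten G protein signals, 4 were higher in CCK and 1 in PV basket cells. Besides Rgs8, Rgs12 was 206 times higher in CCK basket cells, at 385 to 522 CPM against 0.377 to 3.49 CPM (adjusted p = 0.000825), with 18.2% values not whole. Rgs10 and Rgs6 were 17.1 and 10.9 times higher (adjusted p = 0.014 and 0.00537). Rgs4 was 69 times higher in PV basket cells, at 47.3 to 151 CPM against at most 5.31 CPM (adjusted p = 0.0301). Rgs8 and Rgs12 kept their calls with each basket replicate left out.

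Of 43 genes of cyclic nucleotide signalling, 5 were higher in CCK and 4 in PV basket cells. Adcy2, an adenylyl cyclase, stood at 231, 87.5, 338 and 251 CPM in CCK libraries and 5.69 to 19.8 CPM (median 12) in PV lane pairs (18.9 times, log2 4.34, SE 0.40, adjusted p = 9.7e-05). Adcy8, a calcium-stimulated cyclase, was 5.82 times higher in PV basket cells (adjusted p = 0.0323), and Prkg2, a cyclic GMP-dependent kinase, 71.1 times higher (adjusted p = 0.011). Rapgef3, a cyclic AMP-activated exchange factor, ranged from 10.7 to 345 CPM in CCK libraries and reached at most 0.429 CPM in PV lane pairs (adjusted p = 0.0222). Pde4b and Pde1a passed in CCK basket cells with 85.4% and 72.7% of values not whole. Adcy2, Pde4b and Pde1a kept their calls with each basket replicate left out, Pde1a not in the fit of the basket types alone (adjusted p = 0.094), and the basket difference of Adcy2 exceeded the lineage contrast (adjusted p = 0.00141).

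Of 23 tested genes of calcium buffers and sensors, 3 were higher in CCK and 2, Pvalb among them, in PV basket cells. Pcp4, a calmodulin regulator, was 133 times higher in CCK basket cells, at 234 to 503 CPM against at most 8.01 CPM (adjusted p = 0.013). Calb2, which encodes calretinin, was measured at 11.7 and 2.46 CPM in the libraries of animal 5 and at 137 and 134 CPM in those of animal 6, against at most 5 CPM in PV lane pairs (adjusted p = 0.0147). Its mean of 71.7 ± 89.8 CPM (SD, n = 2) therefore rests on animal 6, and it passed in 1 of the 4 fits that left out a basket replicate (adjusted p = 0.00335 without animal 5, 0.135 without animal 6, 0.159 without animals 7 and 8, 0.189 without animals 9 and 10). Calm3, a calmodulin gene, was 2.5 times higher in PV basket cells (adjusted p = 0.0218). Calb1 stood at 14.1 and 219 CPM in CCK and PV basket cells without overlap and without passing (adjusted p = 0.384). Calb1 passed in the fit of the basket types alone (adjusted p = 0.0291) and not in DESeq2 (0.316).

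Synaptic adhesion genes were called higher in CCK basket cells in 10 of 70 and in PV basket cells in 2. Nrxn2, a presynaptic organiser, was 2.91 times higher (adjusted p = 0.00406), and Nrxn3 2.93 times (adjusted p = 0.00172) with 66.4% values not whole. Cbln2, a secreted bridge from neurexins to postsynaptic receptors, was 243 times higher in CCK basket cells, at 965 to 1715 CPM against at most 27.7 CPM (median 0, adjusted p = 0.0323). Elfn1, which recruits presynaptic metabotropic receptors onto interneurons, was 11 times higher in CCK basket cells, at 233 to 408 CPM against 15.5 to 48 CPM (adjusted p = 0.00248). On the PV side, the latrophilin Lphn2 stood at 13.7 to 96.1 CPM against 0.859 CPM in one CCK library and 0 in the others (adjusted p = 0.0168), and Il1rapl2 was 9.24 times higher (adjusted p = 0.00785). Nrxn3 kept its call with each basket replicate left out, and Nrxn2 lost it without animals 7 and 8 (0.0948) and in the fit of the basket types alone (0.0556).

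Among 51 axon guidance genes, 3 were higher in CCK and 4 in PV basket cells. The repellent ligands were divided: Slit2 and Slit3 (12 times, adjusted p = 0.0301) were higher in PV basket cells, while Sema3c was 21.6 times higher in CCK basket cells, at 129 to 266 CPM against 5.15 to 16.5 CPM (adjusted p = 0.0289). Slit3 had means of 4.36 to 17.3 CPM in the other 5 types and 107 CPM in PV basket cells. The netrin receptor Unc5d and the semaphorin receptor Plxna2 were 7.95 and 3.64 times higher in PV basket cells (adjusted p = 0.00537 and 0.0334), and the ephrin receptor Epha3 9.6 times higher in CCK basket cells (adjusted p = 0.0192). Among 28 cadherin genes, Pcdh8 and Cdh8 were higher in CCK basket cells (15.5 and 5.04 times, adjusted p = 0.00207 and 0.0218) and Pcdh19 and Cdh18 in PV basket cells (6.85 and 4.38 times, adjusted p = 0.0171 and 0.0323). Each of these guidance and cadherin calls was lost with at least 1 basket replicate left out.

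Of 59 growth factors and receptors, 6 were higher in CCK and 2 in PV basket cells. Cxcl14, a chemokine of caudal interneurons, stood at 1143, 1416, 657 and 1043 CPM in CCK libraries and at most 3.44 CPM (median 0) in PV lane pairs, 1718 times higher by the means (adjusted p = 0.00785). Igf1 stood at 521 to 931 CPM against 0.471 to 9.96 CPM (adjusted p = 0.000313) with 66.1% of values not whole. Igfbp5, which binds IGF1, was 45 times higher in CCK basket cells (adjusted p = 0.0491). Alk, a receptor kinase, and its ligand Ptn were 4.35 and 40.6 times higher in PV basket cells (adjusted p = 0.0364 and 0.0482), Ptn at 4.87 and 29.1 CPM in the PV replicates and at 0 in 1 lane pair. Kit and Igf1 kept their calls with each basket replicate left out.

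Neurofilament genes were higher in PV basket cells. Of 13 cytoskeletal genes, 5 were higher in PV and 1 in CCK basket cells, with a median of -1.02. Nefm and Nefl, the medium and light subunits of the large-calibre axon, were at 0 in all CCK libraries and at 14.1 to 217 CPM (median 57.5) and 23.4 to 115 CPM (median 42.4) in PV lane pairs, at least 281 and 193 times higher (adjusted p = 0.0056 and 0.0323). Nefh, the heavy subunit, stood at 10.1, 11.5, 2.58 and 29 CPM in CCK libraries and 113 to 281 CPM (median 212) in PV lane pairs (15.7 times, log2 -3.88, SE 0.55, adjusted p = 0.00174). Gap43, a growth cone protein kept in plastic axons, was 5.66 times higher in CCK basket cells, at 172 to 388 CPM against 2.13 to 97.6 CPM (adjusted p = 0.00268). The differences of Nefh and Gap43 exceeded the lineage contrast (adjusted p = 0.00473 and 0.00351), for Nefh not without animals 7 and 8 (0.0566). Nefm and Nefh kept their calls with each basket replicate left out. Hapln4, which links the perineuronal net, stood at 97.1 to 142 CPM in PV lane pairs and at most 8.21 CPM in CCK libraries without passing (adjusted p = 0.0868). In the fit of the basket types alone Hapln4 had an adjusted p of 0.0248, and in DESeq2 0.00117. Of 30 tested genes of the net and matrix, 2 were higher in CCK (6.67%, against 1.74% of all genes) and 0 in PV basket cells.

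Mitochondrial energy genes were called higher in PV basket cells in 6 of 73 (8.22%) and in CCK basket cells in 1, with a median of -0.60. In 29 of the 73 genes all CCK libraries stood below all PV lane pairs, against 4.92% of all genes, and in 1 they stood above. Cox5a, of cytochrome c oxidase, stood at 241, 278, 166 and 386 CPM in CCK libraries and 590 to 1123 CPM (median 943) in PV lane pairs (3.52 times, log2 -1.71, SE 0.24, adjusted p = 0.00174). Cox6a2, an isoform known from muscle, was 23.5 times higher in PV basket cells, at 55.5 to 153 CPM against at most 12.2 CPM (adjusted p = 0.0296). It stood at 71.6 CPM in upper chandelier cells. Mdh2, Ldhb and Atp5g1 were 2.44 to 2.52 times higher (adjusted p = 0.0459, 0.0426 and 0.0272). Ppargc1a, a driver of mitochondrial genes, stood at 67.7 to 147 CPM in CCK libraries and 213 to 386 CPM in PV lane pairs without passing (adjusted p = 0.153). Cox5a alone of these kept its call with each basket replicate left out.

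**Figure D5:**
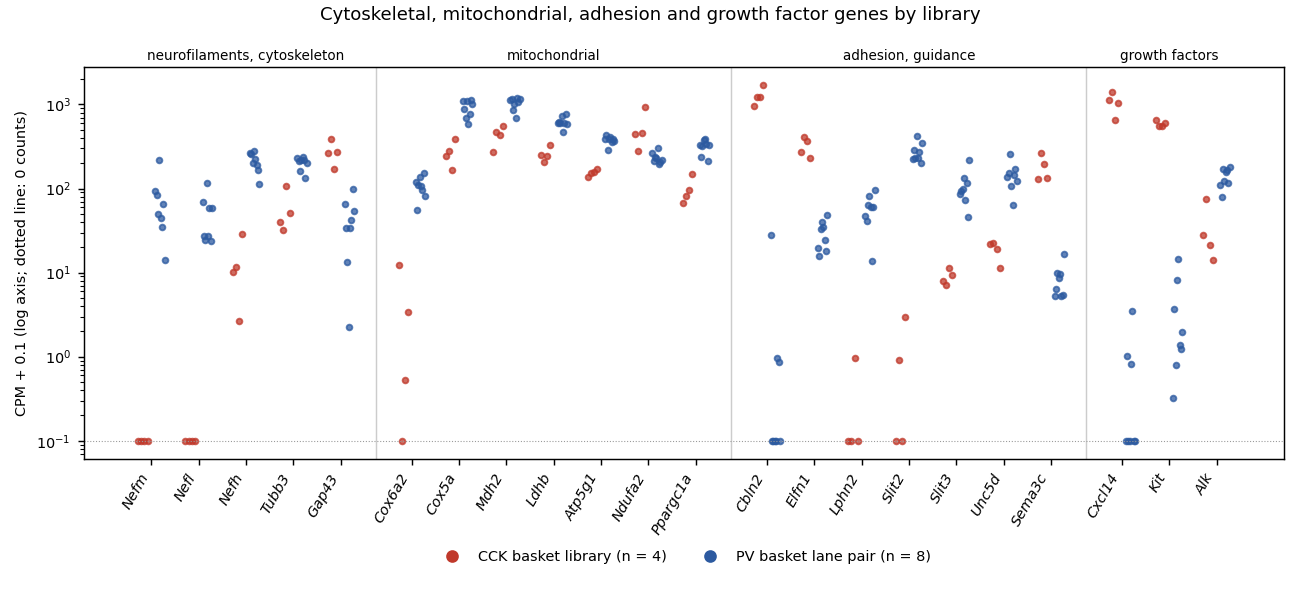
CPM plus 0.1 on a log axis for cytoskeletal, mitochondrial, adhesion, guidance and growth factor genes, with 1 point per CCK library (red) and per PV lane pair (blue). Nefm and Nefl lie at 0 in every CCK library, while Cox5a, Mdh2, Ldhb and Atp5g1 are apart by small steps.

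Of 90 tested transcription factors of interneurons, 11 were higher in CCK and 7 in PV basket cells, several of them lineage genes already described. Zbtb16, Nfib and Nfix were 7.5, 10.9 and 76 times higher in CCK basket cells (adjusted p = 0.00537, 0.0159 and 0.0316), and Id2, an inhibitor of helix-loop-helix factors, 17.3 times (adjusted p = 0.0321). Tox3, an HMG-box protein, stood at 62.2 to 148 CPM (median 99.1) in PV lane pairs and at most 0.411 CPM in CCK libraries (adjusted p = 3.61e-05) and kept its call with each basket replicate left out. Klf5 was measured at 5.57 to 21.4 CPM in PV lane pairs and at most 0.507 CPM in CCK libraries (adjusted p = 0.021). In the fit of the basket types alone Klf5 had an adjusted p of 0.0836. Zbtb16, Nfib, Nfix, Id2 and Klf5 did not keep their calls with every basket replicate left out in turn. Activity-dependent genes were called in 1 of 30 (3.33%, against 1.2% of all genes for PV basket cells). This was Rasgrp1, 27.9 times higher in PV basket cells (adjusted p = 0.0263). In the fit of the basket types alone its adjusted p was 0.191. With any replicate of the series left out, its log2 value ranged from -10.39 to -3.69.

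Genes of large change outside these groups included Fxyd6, a regulator of the sodium pump, at 372, 722, 608 and 1103 CPM in CCK libraries and at most 0.727 CPM in PV lane pairs (adjusted p = 0.0075). Aqp5, a water channel, stood at 125, 124, 24.5 and 120 CPM in CCK libraries and at 0 in PV lane pairs. It was at least 686 times higher (adjusted p = 0.0438) and did not pass in DESeq2 (adjusted p = 0.202). The copine Cpne7 was 201 times higher in CCK basket cells, at 271 to 459 CPM against at most 10.2 CPM (adjusted p = 0.0111). On the PV side were the Ras-related Rerg (8.29 to 164 CPM against at most 0.429 CPM, adjusted p = 0.0159), Moxd1, a monooxygenase-like protein (217 times, adjusted p = 0.0205), Nxph2, a relative of Nxph1 (95.2 times, adjusted p = 0.00525), and Ogfod2 (107 times, adjusted p = 0.0316). Xist was 228 times higher in PV basket cells (adjusted p = 3.61e-05), at 63.2 to 161 CPM in lane pairs that each join a library labelled male with one labelled female. With PV libraries labelled male only, the counts of genes higher in CCK and PV basket cells were 250 and 182. Xist kept its call in that fit, so the fit is no check on sex. Fxyd6, Aqp5, Cpne7, Rerg, Moxd1, Nxph2 and Ogfod2 did not keep their calls with every basket replicate left out in turn, whereas Xist did.

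Of the 30 tested markers of other cell types 0 passed, where the shares over all genes were 1.74% and 1.2%. So few genes at such shares cannot show that other cells were absent. The summed level of 11 excitatory neuron markers was 87 to 381 CPM in CCK libraries and 64.9 to 117 CPM in PV lane pairs. It was mostly Camk2a, at 224 and 62.3 CPM (adjusted p = 0.14 by edgeR and 0.0236 by DESeq2). Slc17a7 stood at 2.85 and 2.55 CPM. Astrocyte markers summed to 184 to 813 CPM and 51.2 to 297 CPM, with Slc1a2 at 199 and 43.7 CPM and Aldoc at 96 and 86.8 CPM. Fgfr3 stood at 59.8 and 7.55 CPM, Slc1a3 at 10.6 and 29.2 CPM and Gfap at 0 in both. Oligodendrocyte markers summed to 10.1 to 120 and 28.8 to 120 CPM, and those of microglia and vessels to 10.7 to 80.3 and 7.43 to 58.2 CPM. Of 8 tested genes of dissociation stress 1 passed, Hspa5, a chaperone of the endoplasmic reticulum, 2.67 times higher in PV basket cells (adjusted p = 0.0301). The part of stress or other cells in the differences above was not tested.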

How the data were processed

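Amplified messenger RNA of single neurons was counted per gene and cell. The expected counts (estimated counts that need not be whole) were deposited by the authors, and Bowtie 0.12.7 and mm9 are named per the submitters' processing notes. The sources used here do not say whether reads or distinct tags were counted. Of the positive values, 4.07% were not whole. The cells of each replicate were added up, the sums rounded, and the genes tested with edgeR 4.0.16 (R 4.3.3; TMM scaling, filterByExpr, robust quasi-likelihood test) over 16 replicates of all 7 types, with Benjamini-Hochberg adjustment over 15533 genes and a threshold of 0.05. CPM are relative to the plain total, without TMM scaling. No label says that replicates come from separate cultures or litters, so p-values measure the spread between these samples.

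Named were Vip, Cck and Pvalb, then on each side the 15 genes of largest log2 change among called genes with at least 50 CPM, separate libraries and a usual symbol (17 symbols passed over), and members of the lists. The comparison, the lists and the tests were chosen with earlier results of these data known. Alternatives were DESeq2 1.42.0, other scaling, filters, replicate units, a replicate block and leaving out each replicate. Some genes are not reported here.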

Additional observations from a re-analysis of the deposited data

Results flagged for a closer look

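Among 57 groups of library values of the named genes, 13 held a library far from the others. The rule is meant to flag about 1 in 20 groups of normally spread values by chance. A lone count in a group otherwise at 0 is always flagged, so that rate does not apply here. In PV lane pairs, these were Vip at 0.859 CPM and Cxcl14 at 3.44 CPM in the pair of libraries 10 and 12, Sp8 and Prox1 at 0.471 CPM each in libraries 14 and 16, and Cacng5 at 1.45 CPM and Nr2f2 at 8 CPM in libraries 9 and 11. Further PV values were Cbln2 at 27.7 CPM in libraries 1 and 3, Cpne7 at 10.2 CPM in libraries 13 and 15, and Nefm at 217 CPM in libraries 6 and 8. In CCK libraries they were Pvalb at 5.07 CPM in library 1, Aqp5 at 24.5 CPM and Lphn2 at 0.859 CPM in library 3, and Rgs4 at 5.31 CPM in library 4. With the exception of Nefm and Aqp5, each is a low value of a gene in the type where it was low.

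The basket difference departed from the lineage contrast for 5 of the 31 genes chosen as drivers or for large change, by -7.99 on the log2 scale for Pvalb, 10.60 for Fxyd6, 6.97 for Rgs8, -8.04 for Slit2 and -14.86 for Xist. Where a gene has few or no counts in a type, as Fxyd6 and Xist do, the fitted value depends on the small count that the fit adds. For Xist, cell type and the sex of the animals also cannot be told apart.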

How the results depend on the processing

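The main counts were 270 genes higher in CCK basket cells, 187 higher in PV basket cells, 1687 in the lineage contrast and 197 for the difference between contrasts. DESeq2 gave 723, 548, 2641 and 1201. The basket types alone gave 150 and 100. The 18 labelled animals as replicates gave 879, 598 and 1030 for CCK, PV and the difference between contrasts, and libraries with PV lane pairs gave 905, 619 and 1156. Labelled libraries with the title number as a replicate block gave 748, 446 and 813, and without the block, chosen after seeing the data, 1632, 893, 2818 (lineage) and 1872. Title numbers only count libraries and pair nothing. These settings treat labelled animals, lane pairs or libraries as separate replicates. Leaving out each replicate gave 32 to 468, 36 to 336, 905 to 2418 and 28 to 601. A lone sample left in a type was assumed to vary like the other types. Other scaling, no filter, PV libraries labelled male and leaving out interneuron-selective library 3 (chosen after seeing the data) stayed within 1.5 times of each count. Except where said, the cause was not tested.

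All 457 called genes kept their direction wherever they were tested. Of 4079 alternative values for 157 named genes, 588 lost the call, 87 gained it and 23 changed sign, the last in 5 genes that were not called. Nkx2-1 changed sign with DESeq2 size factors (0.05), DESeq2 (0.05), PV libraries labelled male (0.07), the replicate block (0.28), no block (0.05) and without that interneuron-selective library (0.01), and Napepld with the block (0.02) and without it (0.01). With 1 replicate left out, log2 values ranged from -0.18 to 0.20 for Nkx2-1, -2.61 to 0.73 for Napepld, -1.71 to 0.31 for Faah, -0.99 to 0.10 for Scn1a and -0.46 to 2.01 for Slc17a7. The median of all genes moved by 0.11 with labelled libraries, by -0.19 without animal 5 and by -0.16 without animal 6. With 2 replicates a type, a difference that did not pass is not shown to be absent.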
